A study of Mus musculus with 42 samples.

Results

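Expression of 9 myelin and oligodendrocyte genes was examined in 4 hypothalamic nuclei of adult mice. The genes were Mbp, Mog, Mag, Mobp, Cnp, Cldn11, Ugt8a, Ermn and Mal, chosen by symbol among the 37907 genes of the table, and all 9 were present. The choice was made with earlier results of these data known. The mice were wild-type males of the strain C57/BL6, and each was either fed ad libitum or deprived of food for 24 hours before the brain was taken. The nuclei were the arcuate nucleus (ARC, 5 fed and 5 fasted libraries), the ventromedial hypothalamus (VMH, 6 and 6), the dorsomedial hypothalamus (DMH, 5 and 4) and the paraventricular nucleus (PVN, 6 and 5), 42 libraries in all. They were cut from stained brain sections by laser-capture microdissection, so each library holds all the cell types of the captured area. The nuclei were captured from the sections of the same brains, and the labels do not tie libraries to mice.

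Oligodendrocytes are the glial cells that wrap axons of the central nervous system in myelin, a stack of membrane that insulates the axon and speeds conduction. They arise from dividing precursors that express the growth factor receptor Pdgfra, and the transcription factors Olig2, Sox10 and Myrf take part in switching on the myelin genes. The genes described here encode different layers of this structure. Myelin basic protein (Mbp) and Mobp lie on the cytoplasmic face of the compacted membrane, and Mal is a proteolipid of myelin lipid rafts. Cnp and ermin (Ermn) belong to the cytoplasmic and cytoskeletal compartments, and claudin 11 (Cldn11) forms the tight junctions between the wraps. Mag sits on the membrane that faces the axon and Mog on the outermost membrane, while Ugt8a makes galactosylceramide, the main glycolipid of myelin.

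The genes lie on 7 chromosomes of the mouse genome (build GRCm38, GENCODE release M21), and each is protein coding. Mal (chr2:127633226-127656695) and Ermn (chr2:58045113-58052864) are on the minus strand of the same chromosome, and Cldn11 (chr3:31149920-31164324, plus strand) and Ugt8a (chr3:125865271-125938619, minus strand) share another. Also placed are Mag (chr7:30899176-30914873, minus), Mobp (chr9:120149707-120181484, plus), Cnp (chr11:100574904-100591729, plus) and Mog (chr17:37010743-37023398, minus). Exons of Ermn, Cnp and Mobp overlap those of a neighbouring gene over 6.52%, 4.23% and 1.15% of their length (Galnt5, Dnajc7 and Gm38642). The counting is not stated to use strand, so a small part of these reads may belong to the neighbour.

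Sequence upstream of the transcription start was read from RefSeq (GRCm38.p6) for the 250 bases before the start. Windows were found for 8 of the 9 genes, with 3 alternative starts for Mag, which gives 10 windows. The 4 shown belong to the genes that mark the ends of the range described below: Mobp and Ermn had the largest differences between VMH and ARC, Cnp had the smallest, and Mal had the largest difference between VMH and DMH. Each is written 5′ to 3′ on the strand of the gene, and capitals mark matches on either strand to a Sox-type motif, searched as ACAAAG or ACAATG. The windows are chr9:120149492-120149741 for Mobp, chr2:58052865-58053114 for Ermn, chr11:100574689-100574938 for Cnp and chr2:127656696-127656945 for Mal.
Mobp: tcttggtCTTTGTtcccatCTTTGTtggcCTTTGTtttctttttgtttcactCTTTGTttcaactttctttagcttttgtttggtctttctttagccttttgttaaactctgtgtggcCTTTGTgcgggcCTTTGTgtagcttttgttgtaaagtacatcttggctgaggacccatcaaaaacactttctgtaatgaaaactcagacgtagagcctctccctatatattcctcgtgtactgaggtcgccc
Ermn: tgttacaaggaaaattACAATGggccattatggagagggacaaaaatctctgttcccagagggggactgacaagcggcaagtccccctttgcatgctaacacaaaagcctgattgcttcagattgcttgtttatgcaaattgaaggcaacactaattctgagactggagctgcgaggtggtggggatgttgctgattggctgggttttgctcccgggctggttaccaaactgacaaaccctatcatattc
Cnp: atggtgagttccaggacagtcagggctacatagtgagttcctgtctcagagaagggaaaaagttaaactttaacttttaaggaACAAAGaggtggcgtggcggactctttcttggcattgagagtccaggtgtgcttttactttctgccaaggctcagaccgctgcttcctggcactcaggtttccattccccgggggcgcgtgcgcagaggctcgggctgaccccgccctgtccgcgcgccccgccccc
Mal: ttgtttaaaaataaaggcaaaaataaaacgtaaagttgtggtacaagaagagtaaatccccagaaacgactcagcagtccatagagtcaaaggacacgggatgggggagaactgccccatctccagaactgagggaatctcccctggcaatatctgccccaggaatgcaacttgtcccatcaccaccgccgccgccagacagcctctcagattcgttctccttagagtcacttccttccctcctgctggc

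The Sox-type motif was present in 5 of the 10 windows (Cnp, Ermn, Mobp and both overlapping windows of Mag), against 25.2% of all 32851 RefSeq windows of this length. The Mobp window held 6 matches, and each of the other 4 held 1. A Myrf-type motif, searched as CTGGCAC or CTGGTAC, was present in 4 of 10 windows (Cnp, Mog and both overlapping windows of Mag) and in 5.93% of all windows. An E-box of the letters CAGCTG or CATCTG was in 0 of the 10 windows and in 25.5% of all, and TATAAA was in 0 of the 10 and in 12.4% of all. These letters describe the windows and were not tested as binding sites.

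Levels are given as RPKM (reads per kilobase of exon, divided by library size). Each value also holds added reads, estimated at 1.44 to 14.4 by library. These raise the level of genes with few reads, more so in short genes. Levels can be compared between genes per unit length only well above this floor. Estimated depth ranged from 1.32 to 13.2 M reads (M, 10 to the power of 6), and 5 libraries were under 2.5 M reads, of which 4 were VMH and 1 was PVN. Depth here means the library size behind the RPKM. It is not the number of reads sequenced, for which the study reports a higher average over all its captured nuclei. The median depth was 3.68 M reads in the VMH, 4.54 in the ARC, 4.78 in the DMH and 4.44 in the PVN. Markers of the nuclei were where the labels place them. Agrp and Pomc in the ARC, Nr5a1 and Fezf1 in the VMH, and Sim1 and Avp in the PVN were higher in every library of their nucleus than in any other library. No such gene was examined for the DMH. At this depth the median library held an estimated 1397 reads of Mbp but 31.2 of Mog, 35.2 of Cldn11 and 80.7 of Mag, and the fasted ARC library 3 held only 1.23 reads of Mog and 4.93 of Mag. Mog, Cldn11, Ugt8a (80.2 reads) and Mag had the fewest reads of the 9.

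All 9 genes had their highest mean in the VMH. Summed over the 9 genes, the level was 248 ± 43.8 RPKM (SD, n = 6) in fed and 238 ± 22.9 (n = 6) in fasted VMH. It was 149 ± 21.03 (n = 5) and 164 ± 27.5 (n = 4) in the fed and fasted DMH, 106 ± 16.8 (n = 6) and 106 ± 17.6 (n = 5) in the PVN, and 94.9 ± 18.2 (n = 5) and 98.7 ± 38.3 (n = 5) in the ARC. The lowest VMH library (191 RPKM) lay above the highest library of any other nucleus (188, a fasted DMH library). The order was VMH, DMH and then PVN and ARC, which lay close together. In captured tissue, fewer oligodendrocytes and less of these RNAs per cell cannot be told apart.

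**Figure D1:**
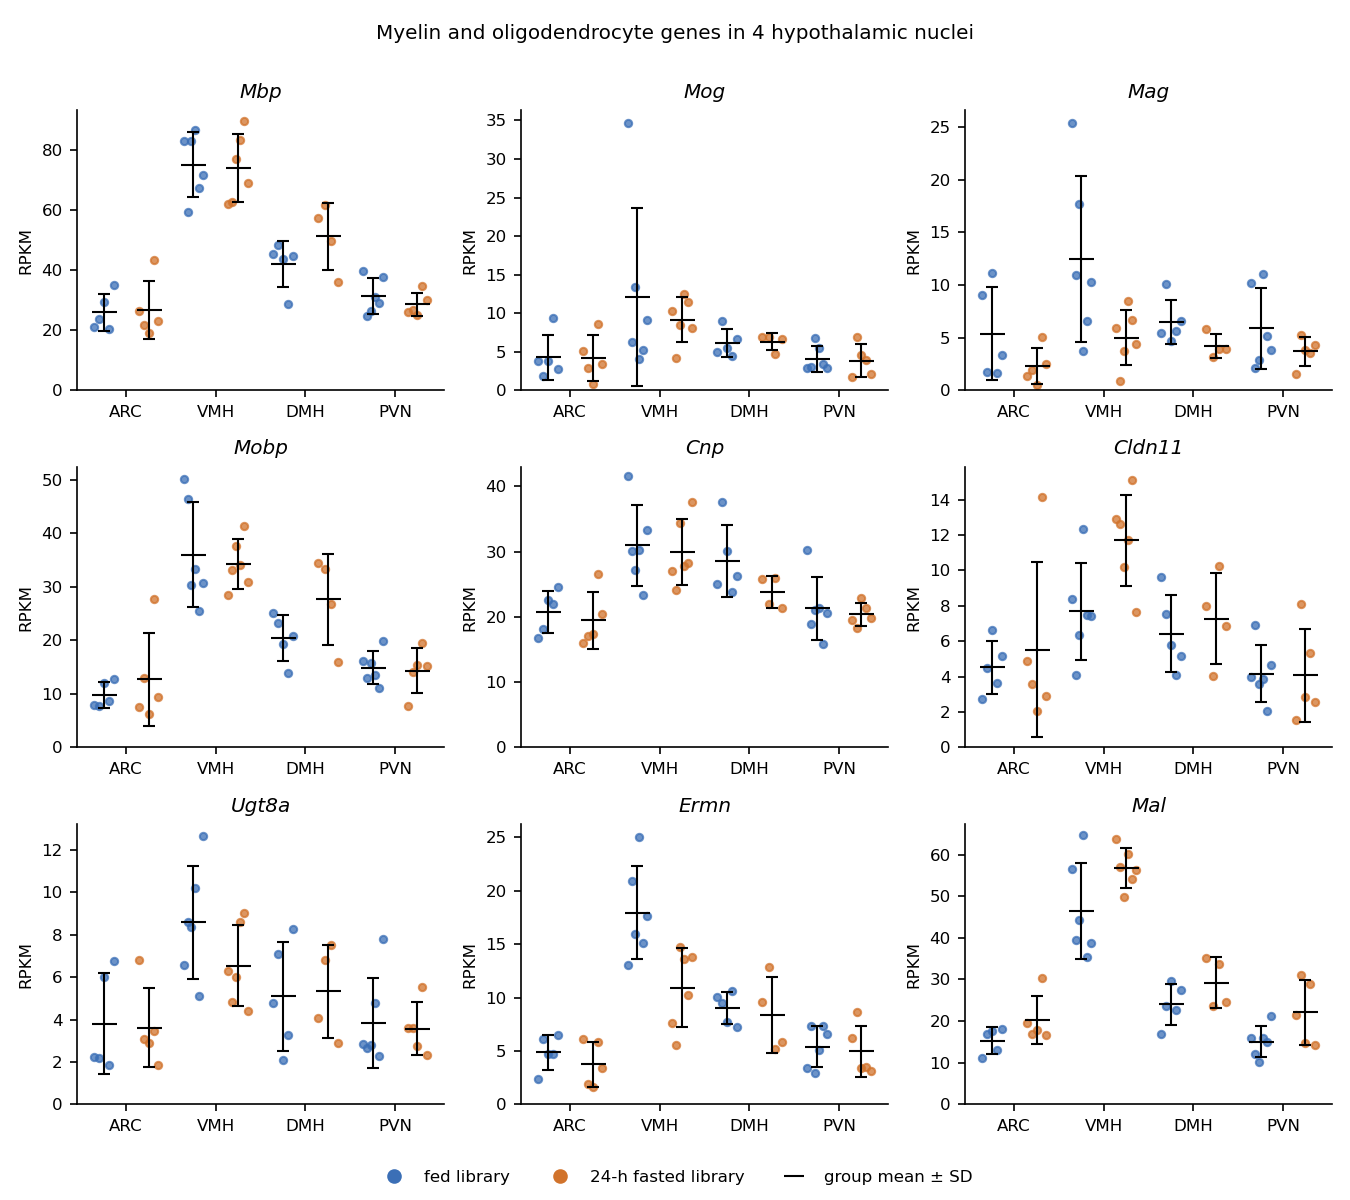
RPKM (y axis, linear from 0) of each gene in every library, by nucleus (x axis), with fed libraries in blue and 24-h fasted libraries in orange, and black bars for the group mean ± SD. Mbp and Mal show no overlap between the 12 VMH libraries and those of the ARC or PVN, while Mog and Mag scatter widely within groups.

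Mbp (chr18:82475146-82585637, plus strand) and Mal separated the nuclei most cleanly. Mbp ranged from 59.4 to 89.8 RPKM (median 74.5) in the 12 VMH libraries, from 28.8 to 61.8 (median 45.4) in the 9 DMH libraries, from 24.9 to 39.8 (median 29.2) in the 11 PVN libraries and from 19.2 to 43.5 (median 23.4) in the 10 ARC libraries. Every VMH library was above all ARC and PVN libraries, and 11 of 12 were above all DMH libraries. Mal ranged from 35.4 to 64.6 RPKM (median 55.3) in the VMH, from 16.8 to 35.3 (median 24.5) in the DMH, from 10.2 to 31.1 (median 15.9) in the PVN and from 11.03 to 30.3 (median 17.3) in the ARC. For Mal the VMH did not overlap any other nucleus, although its lowest library and the highest DMH library were nearly equal.

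Differences between nuclei were tested on log2(RPKM + 1) with limma, averaging the fed and fasted difference. Adjustment was by Benjamini-Hochberg across the 33579 genes tested. An adjusted p under 0.1 was taken as passing. Between VMH and ARC, 9 of 9 genes passed and were higher in the VMH, where 6.21% of all tested genes were. The table holds many genes with few reads. Among the 14407 genes with a median of at least 10 estimated reads, 12.9% were higher in the VMH. The median difference of the 9 genes was 1.11 on the log2 scale, against 0 for all tested genes. The differences were 1.65 (SE 0.18, limma adjusted p = 6.90e-09) for Mobp, 1.54 (SE 0.20, 3.71e-07) for Ermn, 1.50 (SE 0.14, 1.80e-10) for Mal and 1.50 (SE 0.12, 7.45e-12) for Mbp. Mog (1.11, SE 0.28), Mag (1.01, SE 0.32), Ugt8a (0.92, SE 0.22) and Cldn11 (0.92, SE 0.23) followed. Cnp differed least (0.57, SE 0.10, limma adjusted p = 7.14e-05), from a mean of 20.1 ± 3.68 RPKM (SD, n = 10) in the ARC to 30.4 ± 5.43 (n = 12) in the VMH.

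Mobp and Ermn had the largest ratios of mean RPKM between VMH and ARC, 3.11-fold and 3.34-fold. Mobp ranged from 25.4 to 50.1 RPKM (median 33.3) in the VMH and from 6.27 to 27.7 (median 9.06) in the ARC. The overlap came from 1 ARC library, fasted library 4, at 27.7 RPKM, and the next highest ARC library was at 12.9. Ermn ranged from 5.61 to 25.1 RPKM (median 14.3) in the VMH and from 1.60 to 6.47 (median 4.76) in the ARC. Only the lowest VMH library for Ermn, fasted library 2, fell within the ARC range.

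Between VMH and PVN, 8 of 9 genes passed and were higher in the VMH, against 7.05% of all tested genes. Of the 14407 genes with a median of at least 10 estimated reads, 14% were. The differences of the 8 ranged from 0.52 for Cnp to 1.48 for Mal. Mag did not pass (0.60, 95% interval -0.03 to 1.22, limma adjusted p = 0.278). Between VMH and DMH the differences were smaller, with a median of 0.50. Mal (0.93, SE 0.14, limma adjusted p = 1.34e-05), Mbp (0.68, SE 0.13, 0.000235), Mobp (0.56, SE 0.18, 0.0684) and Ermn (0.63, SE 0.21, 0.0721) passed, 4 of 9 where 3.88% of all tested genes were higher in the VMH. Of the same 14407 genes, 8.35% were higher in the VMH than in the DMH. The Mobp and Ermn calls lay near the threshold and each was lost on leaving out any of several single libraries (7 for Mobp and 9 for Ermn).

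**Figure D2:**
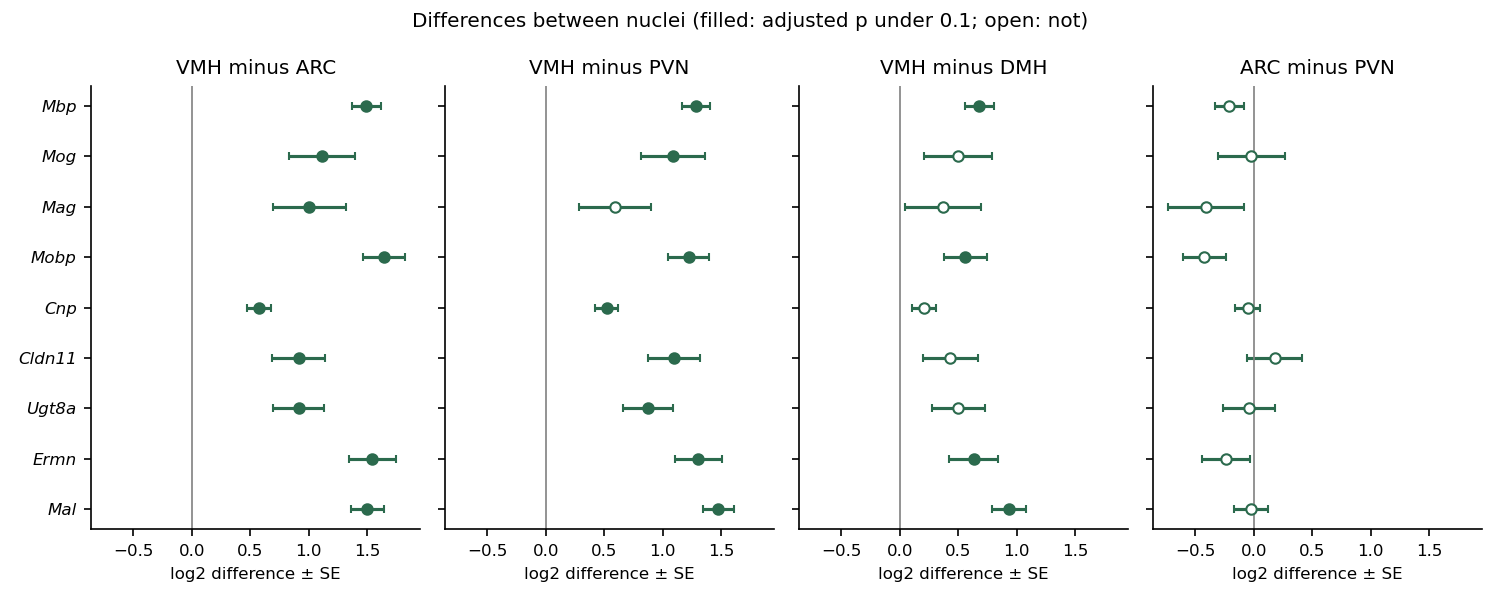
Log2 difference ± SE (x axis) of each gene (y axis) for VMH minus ARC, VMH minus PVN, VMH minus DMH and ARC minus PVN, with filled points for an adjusted p under 0.1. All 9 points are filled for VMH minus ARC, 8 for VMH minus PVN, 4 for VMH minus DMH and 0 for ARC minus PVN.

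The DMH lay between the VMH and the other nuclei. Compared with the ARC, 5 of 9 genes were higher in the DMH (Mobp, Ermn, Mbp, Mal and Cnp, by 1.09, 0.91, 0.81, 0.57 and 0.36 on the log2 scale), against 3.05% of all tested genes. Of the 14407 genes with a median of at least 10 estimated reads, 6% were higher in the DMH than in the ARC. The Cnp call was lost on leaving out any of 4 single libraries. Compared with the PVN, 4 of 9 genes were higher in the DMH (Mbp, Mobp, Ermn and Mal, by 0.60, 0.66, 0.68 and 0.54), against 3.38% of all tested genes. Of the same 14407 genes, 6.12% were higher in the DMH than in the PVN. The Ermn call there was lost without any of 9 single libraries. The remaining values were above 0 in both comparisons and did not pass.

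Between the ARC and PVN, neighbours in this order, none of the 9 differences passed. With limma 0 of 9 genes passed, against 7.40% of all tested genes called in either direction, and 1 gene (Mobp) had an unadjusted p under 0.05. Of the 14407 genes with a median of at least 10 estimated reads, 15% were called. A count of 0 among 9 genes does not set them apart from these shares. The difference PVN minus ARC for Mobp was 0.42 (95% interval 0.05 to 0.79, adjusted p = 0.242). Mobp passed when fasted ARC library 4 or fasted PVN library 1 was left out. The other 8 differences ranged from -0.18 (Cldn11) to 0.41 (Mag), and the interval was narrowest for Cnp (-0.16 to 0.27). It was widest for Mag (-1.065 to 0.2443 when written as ARC minus PVN).

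The mean summed levels had the same order in fed and in fasted mice. Whether each gene differed among the nuclei was tested in each state, which does not test the order. The share of all tested genes includes many with few reads. For these tests it was not computed among genes with a median of at least 10 estimated reads. In fed mice 6 of 9 genes differed among the 4 nuclei (Mbp, Mal, Mobp, Ermn, Cnp and Ugt8a), against 12.4% of all tested genes. In fasted mice 6 of 9 differed (Mbp, Mal, Mobp, Ermn, Cldn11 and Cnp), against 11.9%. Whether Ugt8a and Cldn11 differed between the states in this respect was covered by the test of unequal responses, which neither gene passed. The libraries also fell into 3 sets of 10, 16 and 16 that shared recurring lowest values, and the methods of the study describe 3 batches of capture and library preparation. Within each set the mean of the VMH was above that of the ARC and the PVN for all 9 genes, 27 of 27 comparisons each. It was the highest of all 4 nuclei in 26 of 27, the exception being Cldn11 in the smallest set, where the DMH was higher.

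Other genes of mature oligodendrocytes moved less uniformly. Of 32 further genes, 19 were higher and 2 lower in the VMH than in the ARC, with a median difference of 0.55. Among those higher in the VMH were Bcas1 (1.17, SE 0.14), Apod (1.03, SE 0.14) and the tubulin Tubb4a (0.48, SE 0.06). Both exceptions were called higher in the ARC, Nfasc (VMH minus ARC -0.34, SE 0.07), an adhesion molecule that neurons also express, and Gsn, an actin-severing protein (-1.04). Against the PVN, 18 of the 32 were higher in the VMH and 1 (Nfasc) was lower, and against the DMH 7 were higher and 0 lower.

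Of 7 oligodendrocyte transcription factors, Myrf (0.96, SE 0.19, limma adjusted p = 0.000362) and Nkx6-2 (0.77, SE 0.16, 0.000510) were higher in the VMH than in the ARC and 0 were lower. Sox10 (0.47, SE 0.22, adjusted p = 0.233) and Olig2 (0.46, SE 0.25, 0.314) did not pass. Against the PVN 2 of the 7 were higher in the VMH and 0 lower. Against the DMH 0 of the 7 passed, 4 values were above 0 and the median difference was 0.02. The median summed level of the 7 was 86.8 RPKM in the VMH and 87.2 in the DMH. Of 15 genes of precursors and newly formed oligodendrocytes that were in the table, Fyn was higher in the VMH than in the ARC and Vcan and Tcf7l2 were lower, with a median difference of -0.01. The level of Pdgfra in RPKM was 5.81 ± 1.83 (SD, n = 12) in the VMH and 6.31 ± 1.90 (n = 10) in the ARC, a difference of -0.10 (95% interval -0.41 to 0.20). Whether Pdgfra and the mature genes differed in this respect was not tested. Among 6 genes of peripheral myelin, only Pmp22, Drp2 and Ncmap could be tested, while Pmp2 was listed at the same value in every library. Drp2 was higher in the VMH than in the ARC (0.62, SE 0.16).

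Genes of other cell types also differed between the nuclei. Of 10 genes of the axon and the node of Ranvier, the gap in the myelin where the action potential is renewed, 8 were higher in the VMH than in the ARC and 0 lower, with a median difference of 1.51. The neurofilament genes Nefl and Nefm differed by 1.94 and 2.05, the sodium channel gene Scn8a by 1.50 and the potassium channel gene Kcna1 by 2.18. Against the PVN 9 of the 10 were higher in the VMH, and against the DMH 8 of the 10. The summed level of the 10 ranged from 409 to 536 RPKM in the VMH, 189 to 295 in the DMH, 231 to 327 in the PVN and 162 to 197 in the ARC. Of 11 neuronal genes 7 were higher and 3 lower in the VMH than in the ARC, and their summed level ranged from 1405 to 1867 RPKM in the VMH and from 869 to 1053 in the ARC. Of 12 astrocyte genes 9 were higher and 2 lower, with sums of 600 to 851 RPKM in the VMH and 460.5 to 538 in the ARC. Of 13 endothelial and mural genes 2 were higher and 0 lower, of 12 microglial genes 1 was higher and 1 lower, and of 5 blood genes 0 were higher and 0 lower. Of 9 genes of tanycytes and ependymal cells, which line the third ventricle, 0 were higher and 4 lower in the VMH than in the ARC, with sums of 14.8 to 25.1 RPKM in the VMH and 24.8 to 49.5 in the ARC. Against the PVN, 0 of the 13 endothelial and mural genes were higher in the VMH and 11 were lower, with a median difference of -0.86, and 3 of the 9 tanycyte and ependymal genes were higher and 2 lower. The part of these other genes in the differences of the 9 myelin genes was not tested.

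**Figure D3:**
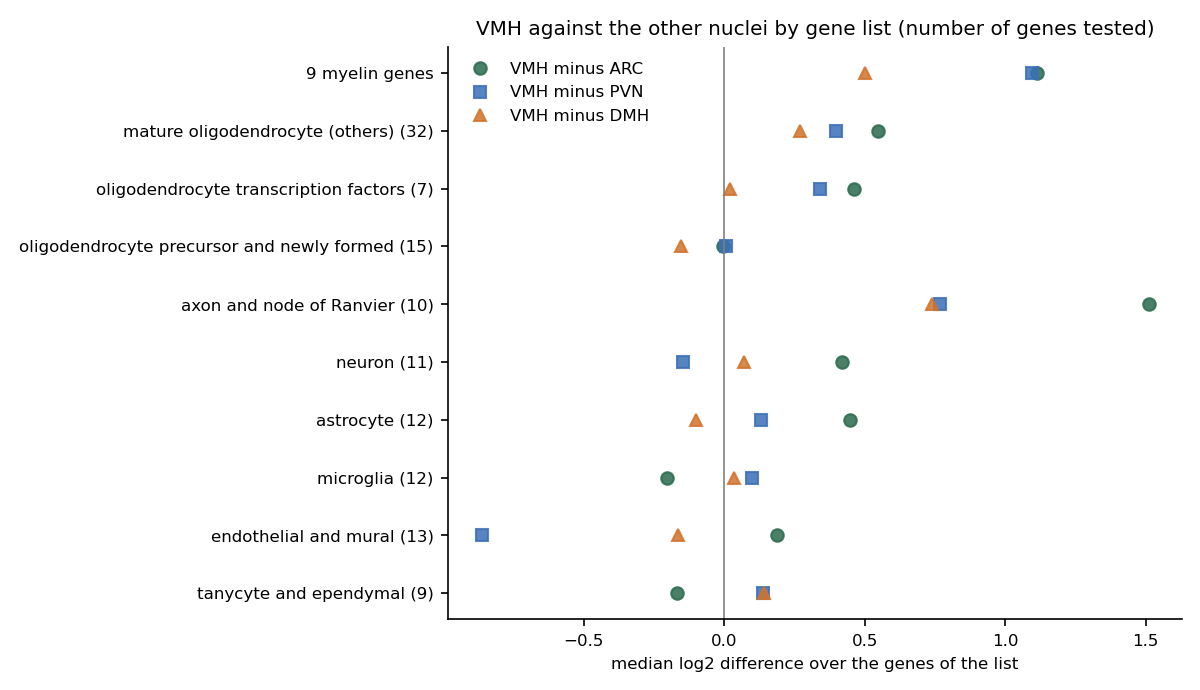
Median log2 difference (x axis) between the VMH and each other nucleus for the 9 myelin genes and for further lists of genes (y axis, number tested in brackets). The 9 genes lie at 1.11, 1.09 and 0.50 for VMH minus ARC, PVN and DMH, the axon and node list at 1.51, 0.77 and 0.74, and the precursor list at -0.01, 0.01 and -0.15.

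The response to a 24-hour fast was examined next within each nucleus. With limma, 0 of 9 genes passed in the ARC, VMH, DMH or PVN, where 0.0566%, 0.131%, 0.0238% and 0.0715% of all tested genes were called. At an unadjusted p under 0.05 there were 0 in the ARC, 2 in the VMH (Mag and Ermn), 0 in the DMH and 1 in the PVN (Mal). The medians of the 9 differences, fasted minus fed, were -0.01, -0.04, 0.09 and -0.11 in this order, against 0 for all tested genes in each nucleus. For Mbp, the most abundant of the 9, the 95% intervals of the difference ran from -0.35 to 0.38 (ARC), from -0.36 to 0.31 (VMH), from -0.12 to 0.66 (DMH) and from -0.48 to 0.22 (PVN). The test of unequal responses between nuclei called 0 of 9 genes, with 0 at an unadjusted p under 0.05, against 0.00596% of all tested genes.

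**Figure D4:**
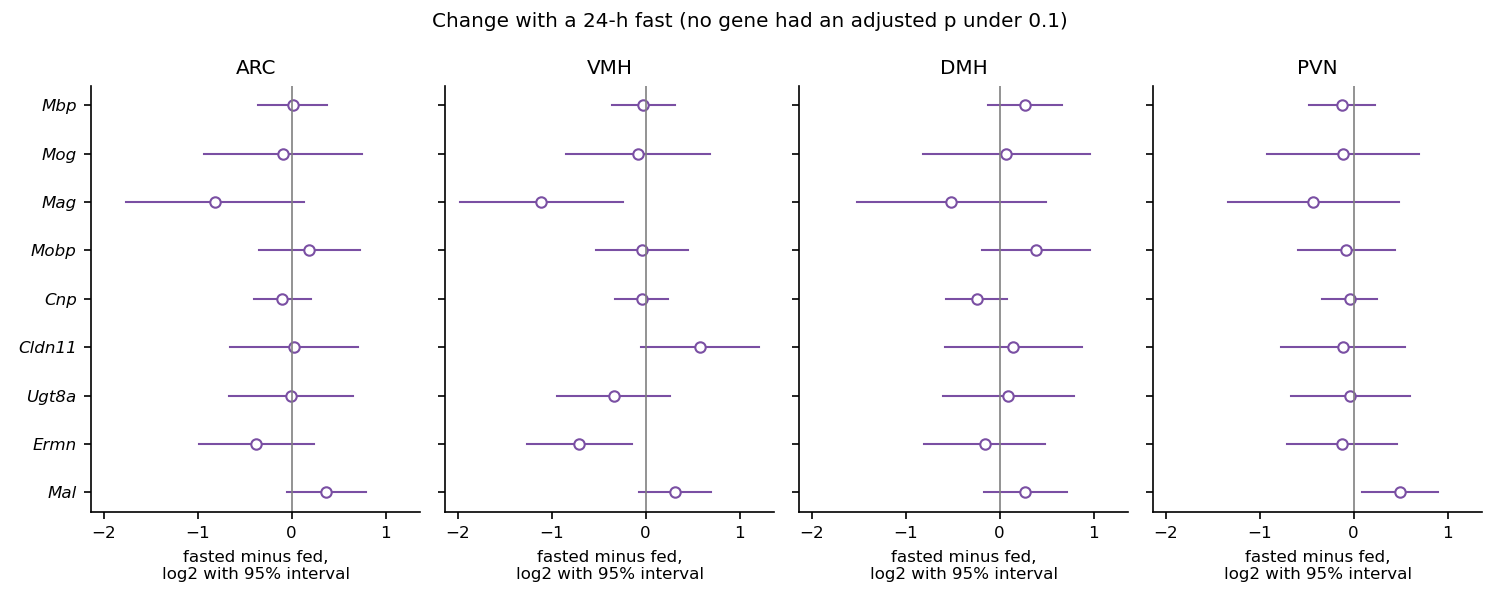
Fasted minus fed difference on the log2 scale with its 95% interval (x axis) for each gene (y axis) in each nucleus. All 36 points are open because none passed, and the widest intervals belong to Mag, whose value is below 0 in all 4 panels.

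The difference of Mag, fasted minus fed, was below 0 in all 4 nuclei and passed in none. In the VMH Mag was at 3.78, 6.58, 10.3, 10.98, 17.7 and 25.4 RPKM in the 6 fed libraries and at 0.859, 3.74, 4.37, 5.95, 6.70 and 8.50 in the 6 fasted libraries. The groups overlapped, and all 6 fasted values were below the fed mean of 12.5. The difference was -1.11 (95% interval -1.97 to -0.25, limma adjusted p = 0.478, exact permutation p = 0.0455, two-sided). It was -0.53 without the libraries under 2.5 M reads, which include the highest fed and the lowest fasted library. In the ARC, DMH and PVN the differences were -0.81, -0.51 and -0.43.

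Ermn also had a difference below 0 in each nucleus, farthest from 0 in the VMH. There it was at 13.02, 15.1, 15.9, 17.7, 20.9 and 25.1 RPKM in fed and at 5.61, 7.64, 10.3, 13.6, 13.8 and 14.8 in fasted mice. The lowest fed library lay below the highest 3 fasted ones, and the other fed libraries lay above all fasted ones. The difference was -0.70 (95% interval -1.26 to -0.15, limma adjusted p = 0.489, exact permutation p = 0.0130), and it was -0.51 without the libraries under 2.5 M reads. The difference of Mal had the other sign in all 4 nuclei, at 0.37, 0.31, 0.27 and 0.49 for the ARC, VMH, DMH and PVN. In the PVN it was at 10.2, 12.1, 14.9, 15.9, 16.0 and 21.1 RPKM in fed and at 14.4, 14.7, 21.4, 29.0 and 31.1 in fasted mice, with overlap (limma adjusted p = 0.824, exact permutation p = 0.113). Cldn11 in the VMH averaged 7.69 ± 2.73 RPKM (SD, n = 6) in fed and 11.7 ± 2.55 (n = 6) in fasted mice, a difference of 0.58 (95% interval -0.05 to 1.21, limma adjusted p = 0.617, exact permutation p = 0.0303). Of the 36 exact permutation tests of a gene in a nucleus, 3 had a p under 0.05, and after adjustment over the 36 the lowest was 0.468.

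Within the 3 sets of libraries the signs of these genes could be compared again, with 1 or 2 libraries a group. The difference was above 0 for Mal in 11 of 11 values (4 nuclei by 3 sets, less the set with no fasted DMH library), and below 0 for Mag in 10 of 11 and for Ermn in 7 of 11. These are the same libraries as above and add no independent support. Of the 32 further mature oligodendrocyte genes 0 passed in any nucleus after fasting, and their median differences were -0.08, -0.12, -0.04 and -0.07 for the ARC, VMH, DMH and PVN.

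Libraries of the same group differed among themselves in how much of these RNAs they held. After removing the 8 group means, 35 of the 36 pairs of genes were positively correlated over the 42 libraries, with a median Pearson's r of 0.33 (Spearman's rho 0.28) and a range from -0.03 to 0.72. The highest was Mbp with Mobp (r = 0.72), followed by Mog with Mag (r = 0.58) and Mobp with Cnp (r = 0.57). Ermn was least tied to the others, with a mean r of 0.18, and Mbp most, with 0.48. The points share library, depth and amplification, so these values are descriptions. Without fasted ARC libraries 3 and 4, which had the lowest and the highest levels for their group, the median r was 0.25. The spread within groups was smallest for Cnp and Mbp (residual SD 0.24 and 0.29 on the log2 scale) and largest for Mag and Mog (0.74 and 0.66).

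**Figure D5:**
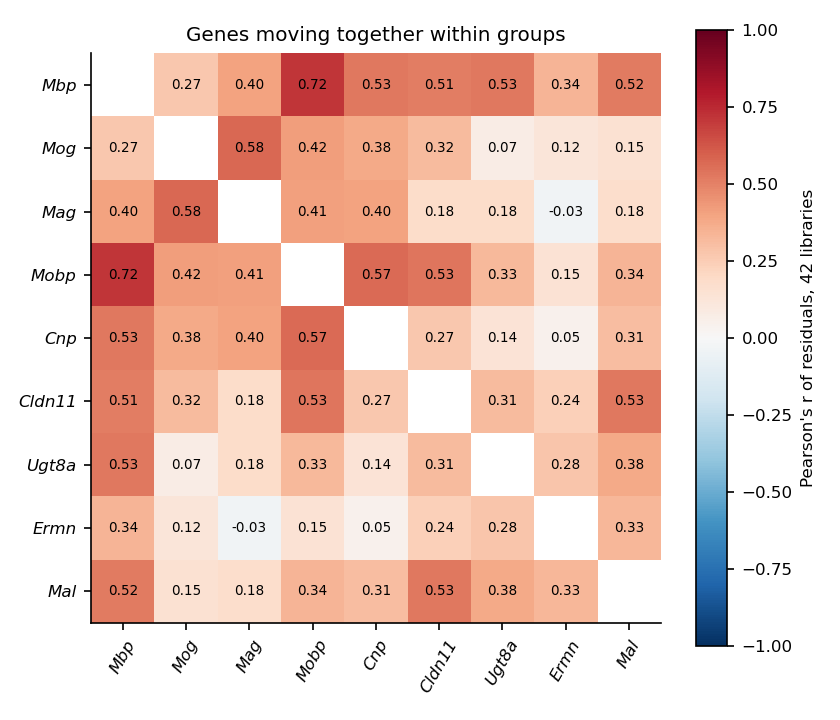
Pearson's r (colour and number) between each pair of the 9 genes over 42 libraries after subtraction of the group means. Mbp with Mobp is highest at 0.72, and the row of Ermn is palest.

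The residuals of 11900 other genes with a mean of at least 5 RPKM were compared with the mean residual of the 9 genes. That cut does not ensure reads in short genes. With no reads, 1 kb of exon is at 1.09 RPKM, and shorter genes are at higher values. Whether the Gm genes named here lay near that value was not tested. Among the 10 most alike were Gm24060 (Pearson's r = 0.62), Gm23130 (0.61), Gm25713 (0.60), Acsl3 (0.58), Susd6 (0.55), Gm23479 (0.55), Max (0.54), Gm22053 (0.54) and Gm23708 (0.54). Only 3 of the 10 remained among the closest 10 without fasted ARC libraries 3 and 4, and 4 of 10 by Spearman's rho, so most of these ranks rest on few libraries. Olig2 was at rank 771 of the 11900 (r = 0.27, and 0.12 without the same libraries), Pdgfra at rank 3893 (r = 0.08) and Sox10 at rank 6525 (r = -0.03).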

How the data were processed

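RNA-seq of laser-captured nuclei was analysed from the table the authors deposited, whose values are RPKM. Total RNA was amplified (NuGEN Ovation RNA-Seq System V2) and sequenced as single-end reads. Per the submitters' processing notes, the tools were CASAVA 1.7, TopHat2 2.0.11, Cufflinks 2.2.1, edgeR and limma, with the genome build GRCm38. The study removed outlying libraries before deposit. The table held 0 values equal to 0. Many genes had a recurring lowest value, taken as that of no reads and shared within 3 sets of libraries. It recurred in every set for 21975 of the 37907 genes. Steps above it were whole reads (within 0.05 reads) for 95.2% to 98.9% of low values of a library, from which depth was estimated (mean 4.56 M reads). In all, 22525 genes had a recurring lowest value in at least 1 set and a known exon length. For 69.0% of them, the geometric mean of that value over the sets holding it matched the exon length within 1%. Whether the deposited values had already been adjusted for the 3 sets was not tested. Amplification adds noise at low reads, and a fold change understates that of a low gene.

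Genes with at least 1 RPKM in at least 4 libraries were kept (33579 genes, all 9 myelin genes among them). With no reads, 1 kb of exon is at 1.09 RPKM, so short genes could pass this filter without reads. Log2(RPKM + 1) was fitted with limma 3.58.1 (R 4.3.3) with a mean for each of the 8 groups, no covariate, and a trended eBayes step, two-sided, with Benjamini-Hochberg adjustment over all genes. Libraries were treated as independent although nuclei share mice, so tests between nuclei do not account for this. The study calls the replicates biological, but the labels name no animal, so p-values measure the spread between these samples, which may be partly technical. Exact permutation tests used scipy 1.17.1. The fit and the recovery of sets were tested on simulated data. The myelin genes and the other gene lists were chosen with earlier results of these data known. Named genes are all 9, up to 4 called genes of a list, Sox10, Olig2 and Pdgfra, and the 10 genes with the most similar residuals. Some of these are not reported here. Gsn, Nfasc, Kcna1, Vcan, Tcf7l2, Fyn, Drp2, Pmp22, Ncmap and Pmp2, and the 6 nucleus markers, were named after their values were seen. Alternatives were other pseudocounts (0.1 and 5), filters, scalings, weights, covariates, a replicate block, fits by nucleus and leaving out each library. One alternative, without libraries under 2.5 M reads, was chosen after seeing the data.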

Additional observations from a re-analysis of the deposited data

Results flagged for a closer look

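Within groups, single libraries stood apart for some genes by Dixon's test at the 95% level. This happened in 6 of 72 groups of a gene, where chance gives about 3.6. Fasted ARC library 4 was high for Cldn11 (14.2 RPKM, against 2.03 to 4.87 in the other 4 libraries) and for Mal (30.3 RPKM, against 16.8 to 19.5). Mog stood apart in 3 groups. It was 34.6 RPKM in fed VMH library 1 (4.07 to 13.4 in the others), 9.35 RPKM in fed ARC library 4 (1.84 to 3.77 in the others) and 4.76 RPKM in fasted DMH library 3 (6.71 to 6.93 in the others). Mbp was 28.8 RPKM in fed DMH library 4, below the 43.7 to 48.4 of the others. Fed VMH library 1 had an estimated 2.02 M reads, the part of which in its Mog value was not tested.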

How the results depend on the processing

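The 9 calls for VMH above ARC and the 8 for VMH above PVN held in number under every alternative and on leaving out each library, and the counts for fasting and for unequal responses stayed at 0. VMH above DMH went from 4 genes to 2 with the replicate block by state, and ranged from 2 to 4 on leaving out each library. ARC against PVN ranged from 0 to 1 on leaving out each library. The other counts stayed within 1.5 times, 4 to 6 for ARC against DMH, 3 to 6 for DMH against PVN, 5 to 7 for fed and 6 to 7 for fasted nuclei. Among same-numbered libraries, 0 of 20 fed and fasted pairs and 0 of 58 pairs of nuclei had residuals correlated over 0.1. Their median correlations were -0.05 and -0.03, against 0.02 and 0.01 for pairs of unlike number. Fed and fasted libraries cannot share a mouse, and same-numbered libraries often lie in the same one of the 3 sets. The check therefore cannot decide whether the numbers mark mice, and they were not taken as pairs. The replicate block changed no call within fasting. Among the uncalled genes near 0, the sign turned as follows, and the cause was not tested. With array weights the fasting difference was 0.0722 for Mog in the ARC, 0.0448 for Mbp, 0.0328 for Mog, 0.0791 for Mobp and 0.0507 for Cnp in the VMH, -0.0248 for Ugt8a in the DMH, and 0.0477 for Mobp, 0.0429 for Cnp and 0.014 for Cldn11 in the PVN, and ARC minus PVN was 0.0221 for Mog and 0.0177 for Cnp. The pseudocount of 0.1 gave -0.00479 for Cldn11 and 0.011 for Ugt8a in the ARC after fasting, that of 5 gave 0.0113 for Mog in ARC minus PVN, quantile normalization gave 0.0361 for Mbp and 0.01 for Mobp in the VMH, depth as a covariate gave 0.0244 for Ugt8a in the ARC, and the replicate block gave 0.0343 for Ugt8a in the PVN and, by state, 0.0359 for Ugt8a in ARC minus PVN. Without libraries under 2.5 M reads the VMH gave 0.116 for Mbp, 0.53 for Mog, 0.112 for Mobp and 0.198 for Cnp, and the PVN 0.0204 for Cldn11. On leaving out each library in turn, the sign also turned for fasting in the ARC, Cldn11 -0.344 to 0.237, Ugt8a -0.215 to 0.201, Mog -0.363 to 0.242, Mbp -0.171 to 0.126 and Mobp -0.126 to 0.369. It turned for fasting in the DMH, Ugt8a -0.122 to 0.301, Cldn11 -0.0207 to 0.364, Ermn -0.373 to 0.0158 and Mog -0.0146 to 0.205. It turned for fasting in the PVN, Mog -0.318 to 0.0678, Mobp -0.197 to 0.113, Cldn11 -0.36 to 0.0957, Ugt8a -0.178 to 0.153 and Cnp -0.118 to 0.0618. It turned for fasting in the VMH, Mbp -0.089 to 0.0234, Mobp -0.129 to 0.0614, Mog -0.286 to 0.276 and Cnp -0.118 to 0.0439. It turned for ARC minus PVN, Mog -0.161 to 0.143, Mal -0.0992 to 0.0426, Cldn11 -0.00551 to 0.302 and Ugt8a -0.145 to 0.0556.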
